A study of Homo sapiens with 35 samples.

Results

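Transcripts of 39 genes that build ribosomes, RNA polymerase I and its initiation factors included, were followed in RPMI-8226 cells after a pulse of the proteasome inhibitor carfilzomib. The genes were taken by symbol from the protein-coding entries of the count table, in which they made up 39 of 19665 entries, and all 39 had counts in each of the 35 libraries. They were taken by name, with no threshold on a measured value. Ribosome biogenesis starts in the nucleolus, where RNA polymerase I copies the ribosomal DNA into a long precursor of the ribosomal RNAs. Small nucleolar ribonucleoproteins (snoRNPs) then modify this precursor, and large sets of processing factors cut and fold it into the small and the large ribosomal subunit. The pathway consumes much of the energy of a growing cell and is a known transcriptional target of MYC, an oncogenic transcription factor on which myeloma cells often depend.

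RPMI-8226 is an established human multiple myeloma line, that is, a line of malignant antibody-secreting plasma cells. Cultures received 750 nM carfilzomib, an irreversible inhibitor of the proteasome, for 1 h and were then kept in drug-free medium, and RNA was taken on days 0, 1, 2, 4, 6, 8 and 10 with 5 libraries a day. The labels list the drug for day 0 as well, whereas the methods of the study place the day 0 collection before the pulse. The methods describe subcultures split from an expanded culture, whereas legends of the study call the replicates independent experiments, so it is not settled what separates the 5 libraries of a day. The errors and adjusted p-values given here cover the spread between these libraries, which may be technical. The 35 libraries hold no untreated culture kept for the same number of days, so the pulse and the time in culture cannot be told apart.

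The libraries held between 6519392 and 10962890 estimated counts, of which 5373835 to 9307889 were protein coding, and the 39 genes together drew between 34290 and 72127 counts a library. Levels are given as CPM, that is, protein-coding counts brought to a common library size, and a CPM value is not corrected for transcript length, so it ranks days of a gene rather than genes. Of the 7 plasma cell markers, 7 were above 1 CPM, and of the 9 markers of other cell types 4, with LYZ, HBB and ALB among them, stayed under 1 CPM in every library and the other 5 did not, of which EPCAM, an epithelial surface protein, ranged from 44.0 to 95.7 CPM. The summed level of the plasma cell markers ran from 5936 to 6834 CPM on day 0 and from 2367 to 2675 CPM on day 1, and that of the other markers from 61.1 to 86.9 CPM and from 82.5 to 92.6 CPM on the same days. The part of these markers in the results was not tested. In bulk RNA, fewer cells of a kind and less RNA per cell cannot be told apart.

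Of the 39 ribosome biogenesis genes, 16 were called higher than on day 0 on day 1 or 2 and lower on day 4, 6 or 8, 4 (RRN3, WDR43, DDX18 and DDX21) were lower on all 6 days, and 12 were called higher on some day and lower on none (heatmap of changes). The share of all transcripts with these orders of calls was not computed, so the orders cannot be called particular to these genes. Of the 4, DDX21 alone kept its day 1 call when libraries were scaled by their size alone. The 12 include POLR1C, NOP56 and GNL3, whose sign turned on day 4 with all transcript types of a symbol summed. They then stood at log2 fold changes of -0.68, -0.61 and -0.25, each called lower. On day 1 after the pulse, 25 of the 39 transcripts were higher than on day 0 and 6 were lower at an adjusted p of 0.05 or less in edgeR, where 25.4% of all 17999 protein-coding transcripts tested were higher and 27.3% lower. Their median log2 fold change was 0.28, against -0.06 for all transcripts. A called change above a fold of 2 was seen in 2 of 39 genes, NOP56 and UTP20, both higher, while 7.27% of all transcripts were higher and 13.2% lower by that measure. On day 2, 22 genes were higher (background 23.2%) and 7 lower (24.4%), with a median of 0.20. The shares of all transcripts or entries, here and below, include those with as little as 1 count, which can hardly pass the test. Each of the 39 genes had at least 2635 protein-coding counts over the libraries. Among transcripts counted as well the shares may be higher, and they were not computed.

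From day 4 the balance had turned. On day 4, 7 genes were higher (19.0% of all transcripts) and 20 lower (20.1%), and on day 6 the split was 4 higher (17.5%) and 24 lower (17.0%), with medians of -0.26 and -0.33. On day 8, 8 were higher (18.2%) and 23 lower (18.6%), with a median of -0.30. On day 10, 9 were higher (16.1%) and 12 lower (15.8%), with a median of -0.01. All of these comparisons share the day 0 libraries. Scaled by library size alone, the splits were 30 higher and 1 lower on day 1, 11 and 16 on day 4, and 15 and 8 on day 10, where the median turned to 0.05. That scaling put the median log2 fold change of all adequately counted transcripts at 0.12, 0.11 and 0.07 on these days.

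**Figure D1:**
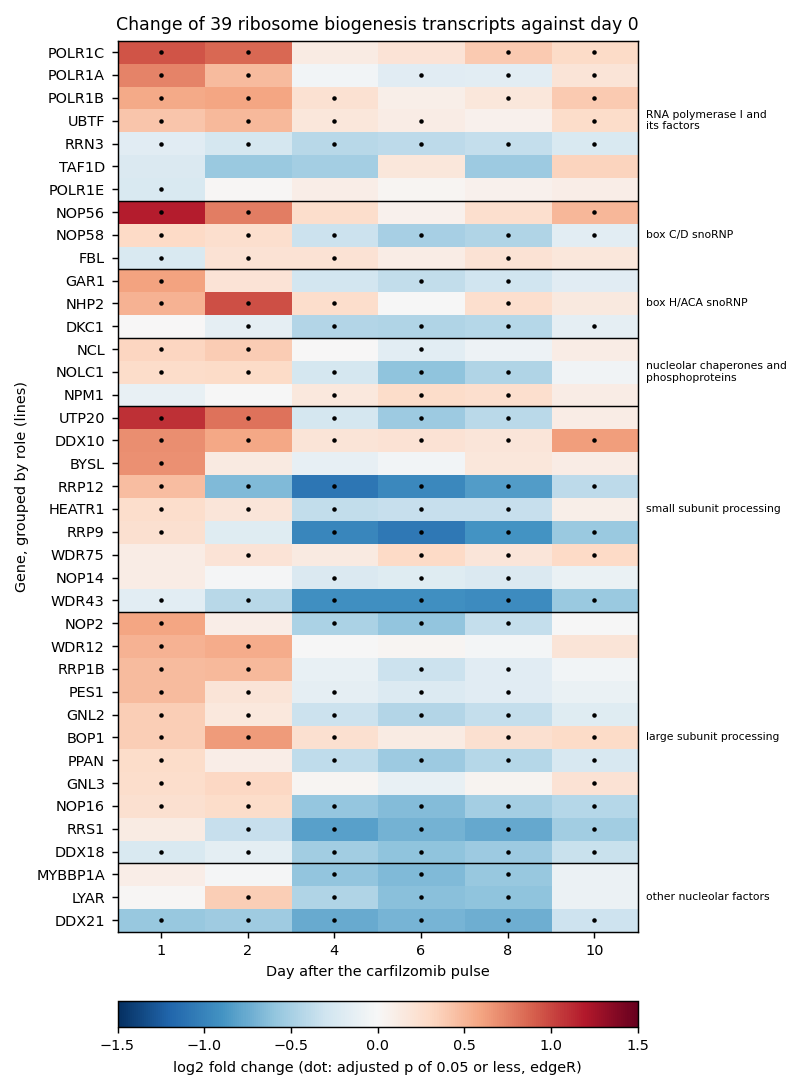
Each row is a gene, grouped by role, and each column a day after the pulse. Colour gives the log2 fold change against day 0 and a dot an adjusted p of 0.05 or less in edgeR (5 libraries a day). Red cells gather on days 1 and 2, where 25 and 22 genes were higher, and blue cells on days 4 to 8, where 20, 24 and 23 genes were lower.

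Comparisons of neighbouring time points located the turn between days 2 and 4. Over this interval 33 of 39 genes fell and 1, NPM1, rose, where 16.7% of all transcripts fell and 13.9% rose. From day 1 to day 2, 13 genes fell (19.4% of all transcripts) and 5 rose (20.2%). From day 4 to day 6, 6 fell (5.98%) and 1 rose (6.09%), and from day 6 to day 8, 0 fell (1.53%) and 1, NHP2, rose (1.03%). In the last interval, from day 8 to day 10, 19 genes rose (5.08%) and 0 fell (4.97%). The count of 6 falls between days 4 and 6 rested partly on the third library of day 4, without which it was 3. For the 0 falls between days 6 and 8, edgeR gave 1 at an unadjusted p under 0.05, DESeq2 gave 0 and the fit to those 2 days alone 1. For the 0 falls between days 8 and 10, edgeR gave 1 at an unadjusted p under 0.05 and DESeq2 gave 1.

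Together the 39 transcripts accounted for 0.654% ± 0.023 (SD, n = 5) of protein-coding counts on day 0. The share rose to 0.794% ± 0.021 on day 1 and stood at 0.791% ± 0.013 on day 2. It was 0.647% ± 0.020 on day 4, 0.606% ± 0.0099 on day 6 and 0.621% ± 0.021 on day 8, and 0.690% ± 0.014 on day 10. The lowest library of days 1 and 2 (0.766%) lay above the highest of day 0 (0.689%), and the highest of day 6 (0.618%) below the lowest of day 0 (0.629%). These shares use no scaling factors, and the genes with most counts, NPM1 and NCL, weigh most in them. Without factors the median log2 fold change of all adequately counted transcripts was 0.12, 0.13 and 0.07 on days 1, 2 and 10. Mean levels (log2 CPM) were highest on day 1 for 19 genes and on day 2 for 12, and lowest on day 6 for 19. These ranks of means were not tested, and the shares of all transcripts with such ranks were not computed.

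Among the 7 genes for RNA polymerase I and its factors, 4 were higher and 2 lower on day 1 (25.4% and 27.3% of all transcripts). On day 6, 1 was higher and 2 were lower (17.5% and 17.0%). Of these day 6 calls, that of UBTF was lost with the DESeq2 size factors and that of POLR1A when libraries were scaled by their size alone, and both when single libraries were left out. POLR1A, the largest catalytic subunit (chromosome 2, 86020216 to 86106155 on GRCh38), changed by 0.75 on day 1 (edgeR adjusted p = 2.07e-15) and POLR1B, the other large catalytic subunit, by 0.57 (4.57e-11) on the log2 scale. UBTF, which bends and opens the ribosomal DNA promoter, was also higher on days 1 and 2, by 0.42 and 0.49. RRN3, which recruits the polymerase to the promoter in response to growth signals, went the other way: its mean level was 96.5 ± 2.1 CPM on day 0, 85.5 ± 3.5 on day 1 and 72.1 ± 3.7 on day 4 (SD, n = 5), a log2 change of -0.42 on day 4 (edgeR adjusted p = 3.28e-08). Pseudogene copies of RRN3 exist, and counts shared with them could have been split. TAF1D, a subunit of the promoter selectivity factor, passed the test on none of the 6 days (adjusted p between 0.114 and 0.7), at the lowest mean level of the 39 genes on day 0, 12.9 ± 1.7 CPM.

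The largest early rise in this group was that of POLR1C, a subunit that RNA polymerases I and III share (chromosome 6, 43509702 to 43562419). Its protein-coding entry stood at 19.3, 19.4, 19.5, 27.5 and 24.3 CPM in the 5 libraries of day 0, at 39.7, 47.8, 39.8, 36.2 and 45.8 CPM on day 1 and at 37.5, 43.5, 34.5, 39.6 and 42.9 CPM on day 2. Every library of both days lay above all libraries of day 0, and the log2 fold change on day 1 was 0.94 ± 0.10 (SE, edgeR adjusted p = 2.45e-10). On day 4 it was at 22.3, 25.1, 21.5, 26.9 and 22.4 CPM, within the day 0 range, and 0.12 ± 0.11 (SE, edgeR adjusted p = 0.427) was not called. This rise was not seen when all transcript types of POLR1C were counted together (log2 fold change of -0.04). POLR1E, a subunit particular to RNA polymerase I (chromosome 9, 37485948 to 37503697), showed the lowest value of the group on day 1. It was at 47.1, 47.9, 41.3, 48.7 and 49.5 CPM on day 0 and 36.6, 40.0, 42.7, 38.6 and 41.9 CPM on day 1, where 3 of 5 libraries lay below all of day 0, with a log2 fold change of -0.23 ± 0.08 (SE, edgeR adjusted p = 0.0108).

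Box C/D snoRNPs carry guide RNAs that direct methylation of ribosomal RNA riboses, and NOP56, NOP58 and the methyltransferase fibrillarin (FBL) form their core. The protein-coding entry of NOP56 (chromosome 20, 2652593 to 2658393) showed the largest rise of all 39 genes on day 1. It was at 51.9, 52.5, 24.0, 47.5 and 31.0 CPM on day 0, at 98.6, 90.2, 87.4, 98.3 and 96.7 CPM on day 1 and at 59.3, 64.2, 55.2, 62.3 and 54.1 CPM on day 10. The day 0 libraries were spread more widely than those of day 1, and all libraries of days 1 and 10 lay above them. The log2 fold changes were 1.18 ± 0.14 (SE, edgeR adjusted p = 2.1e-09) on day 1 and 0.50 ± 0.15 (SE, edgeR adjusted p = 0.00611) on day 10. On day 4 NOP56 again varied widely, at 65.8, 37.4, 53.7, 33.0 and 61.3 CPM, and the change was not called (adjusted p = 0.16). As for POLR1C, the result depended on which transcript types were counted. On day 0 the protein-coding entry of NOP56 was at 41.4 ± 13.1 CPM, and all its types summed at 195 ± 12 CPM (SD, n = 5). The wide relative spread was thus that of the entry rather than of the summed gene. Summed, the day 1 rise was smaller, and day 10 was called lower, at -0.45 (edgeR adjusted p = 4.93e-10).

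NOP58 rose by 0.30 on day 1 and was lower on days 4, 6 and 8, at -0.50 on day 6 (edgeR adjusted p = 1.92e-10). FBL (chromosome 19, 39834458 to 39846379) was the exception in direction. It measured 191, 220.3, 187, 223 and 244 CPM on day 0, 164, 185, 178, 199.8 and 183 CPM on day 1 and 249, 272, 232, 228 and 261 CPM on day 2. Of the day 1 libraries 4 of 5 lay below all of day 0, whereas those of day 2 reached above them in 3 of 5. The log2 fold change was -0.23 ± 0.07 (SE, edgeR adjusted p = 0.00777) on day 1 and 0.22 ± 0.07 (SE, edgeR adjusted p = 0.00844) on day 2, and the rise from day 1 to day 2 was 0.45 (edgeR adjusted p = 1.44e-06). The day 2 call against day 0 was lost without the first library of day 0 (0.16) or the second of day 2 (0.17).

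Box H/ACA snoRNPs convert uridines of the ribosomal RNA to pseudouridine. GAR1, a core protein of the particle (chromosome 4, 109815510 to 109824740), was at 20.0, 24.9, 24.1, 23.8 and 21.2 CPM on day 0, 30.9, 38.4, 31.3, 39.3 and 32.8 CPM on day 1 and 19.8, 15.5, 17.9, 15.7 and 18.8 CPM on day 6. All libraries of day 1 lay above and all of day 6 below those of day 0, with log2 fold changes of 0.60 ± 0.12 (SE, edgeR adjusted p = 2.3e-05) and -0.37 ± 0.12 (SE, edgeR adjusted p = 0.0136). NHP2, another core protein, reached its highest level a day later, with 99.8 ± 3.5 CPM on day 0, 143 ± 12.1 CPM on day 1 and 195 ± 13.3 CPM on day 2 (SD, n = 5), a log2 fold change of 0.96 on day 2 (edgeR adjusted p = 8.09e-16). DKC1, the pseudouridine synthase dyskerin (chromosome X, 154762742 to 154777689), had no early rise. Its values were 283, 290.0, 285, 314 and 313 CPM on day 0, 288, 286, 303, 313 and 301 CPM on day 1 and 208, 220.1, 212, 227 and 217 CPM on day 6. Days 0 and 1 overlapped (adjusted p = 0.982), whereas all libraries of day 6 lay below both, with a log2 fold change of -0.45 ± 0.04 (SE, edgeR adjusted p = 5.03e-11).

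The abundant nucleolar proteins NCL, NOLC1 and NPM1 diverged. NCL, or nucleolin, which binds nascent precursor RNA (chromosome 2, 231453531 to 231483641), was at 761, 747, 779, 820.5 and 868 CPM on day 0, 922, 965, 1059, 1011 and 1028 CPM on day 1 and 1083, 1034, 1012, 972 and 1079 CPM on day 2, without overlap with day 0. The log2 fold changes were 0.33 ± 0.05 (SE, edgeR adjusted p = 6.61e-07) and 0.38 ± 0.05 (SE, edgeR adjusted p = 3e-08). NOLC1, a chaperone of snoRNPs, rose by 0.28 on day 1 and was lower by day 6, at -0.61 (edgeR adjusted p = 3.58e-08). NPM1, or nucleophosmin, is the histone and ribosome chaperone that forms the outer layer of the nucleolus (chromosome 5, 171387116 to 171411810). It was called against day 0 on days 4, 6 and 8 alone, each time higher. It measured 1471, 1466, 1471, 1637 and 1546 CPM on day 0, 1312, 1374, 1516, 1432 and 1403 CPM on day 1 and 1726, 1836, 1905, 1787 and 1948 CPM on day 6. The day 1 libraries overlapped day 0 and the change was not called (log2 fold change of -0.11 ± 0.05, SE, edgeR adjusted p = 0.0632), whereas all day 6 libraries lay above it (0.28 ± 0.05, SE, edgeR adjusted p = 1.58e-05). Processed pseudogenes of NPM1 are numerous and could have taken a share of its counts.

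The small subunit processome assembles on the precursor as it is transcribed, and 9 of the genes belong to it or to later steps of small subunit assembly. On day 1, 6 were higher and 1 lower (25.4% and 27.3% of all transcripts), and on day 6, 2 were higher and 6 lower (17.5% and 17.0%). UTP20, a very large scaffold protein (chromosome 12, 101280105 to 101386618), was at 50.5, 52.4, 50.8, 54.1 and 56.2 CPM on day 0, 115, 106, 117, 109.8 and 115 CPM on day 1 and 36.8, 34.6, 31.8, 41.6 and 36.0 CPM on day 6. The 3 days did not overlap. The log2 fold change was 1.09 ± 0.07 (SE, edgeR adjusted p = 5.14e-17) on day 1 and -0.54 ± 0.08 (SE, edgeR adjusted p = 2.08e-07) on day 6, and the fall from day 2 to day 4, -1.07 (edgeR adjusted p = 2.45e-15), was the largest of the 39 genes in that interval. By day 10 it had risen from day 8 by 0.52 and its 52.8, 56.2, 59.1, 51.0 and 66.6 CPM overlapped day 0.

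DDX10, an RNA helicase needed for early cleavages (chromosome 11, 108665058 to 108940999), had the largest rise on day 10. It was at 66.1, 71.3, 76.5, 69.7 and 68.3 CPM on day 0, 105, 113, 122, 117 and 113 CPM on day 1, 69.8, 80.3, 82.9, 82.5 and 82.4 CPM on day 8 and 109.8, 116, 106, 107 and 106 CPM on day 10. Days 1 and 10 lay above day 0 without overlap, whereas day 8 overlapped it. The log2 fold change was 0.70 ± 0.06 (SE, edgeR adjusted p = 3.67e-13) on day 1, 0.18 ± 0.06 (SE, edgeR adjusted p = 0.0194) on day 8 and 0.63 ± 0.06 (SE, edgeR adjusted p = 3.22e-11) on day 10.

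WDR43, a member of the processome's transcription-coupled subcomplex (chromosome 2, 28894667 to 28948219), had the lowest value of the group on day 1 and the largest fall of all 39 genes on day 10. It measured 187, 197, 199, 215 and 208 CPM on day 0, 166, 176, 183, 192 and 185 CPM on day 1, 101, 109, 107, 105 and 108 CPM on day 4 and 133, 140.5, 131, 127 and 149 CPM on day 10. Day 1 overlapped day 0 in 1 library, day 4 lay far below it, and day 10 was below day 0 and above day 4. The log2 fold change was -0.15 ± 0.05 (SE, edgeR adjusted p = 0.00667) on day 1, -0.92 ± 0.05 (SE, edgeR adjusted p = 6.37e-19) on day 4 and -0.56 ± 0.05 (SE, edgeR adjusted p = 2.56e-12) on day 10. HEATR1 and WDR75, which belong to the same subcomplex, differed from it: HEATR1 was at 0.26 on day 1 and -0.34 on day 6, and WDR75 at 0.30 on day 6, all called. RRP9, which holds the guide RNA of the processome in place, went from 0.25 on day 1 to -1.07 on day 6 (edgeR adjusted p = 4.12e-14), the lowest value of all 39 genes on that day.

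RRP12, an export factor of the small subunit (chromosome 10, 97356358 to 97426076), was chosen after its values were seen, because it was high on day 1 and low on day 2. It was at 160.0, 182, 149.8, 168 and 161 CPM on day 0, 239, 219, 221, 236 and 221 CPM on day 1 and 101, 111, 103, 104 and 100.2 CPM on day 2. All day 1 libraries lay above and all day 2 libraries below those of day 0. The change from day 1 to day 2, -1.13 (edgeR adjusted p = 2.95e-20), was the largest of the 39 genes in that interval, the next being BYSL at -0.55. BYSL, a late small subunit factor, was called against day 0 on day 1 alone, at 0.68, and NOP14, a processome component, was lower on days 4, 6 and 8, at -0.22, -0.18 and -0.22. Scaled by library size alone, NOP14 was not called on days 4 and 6. Its day 6 call was also lost without the fifth library of day 0.

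**Figure D2:**
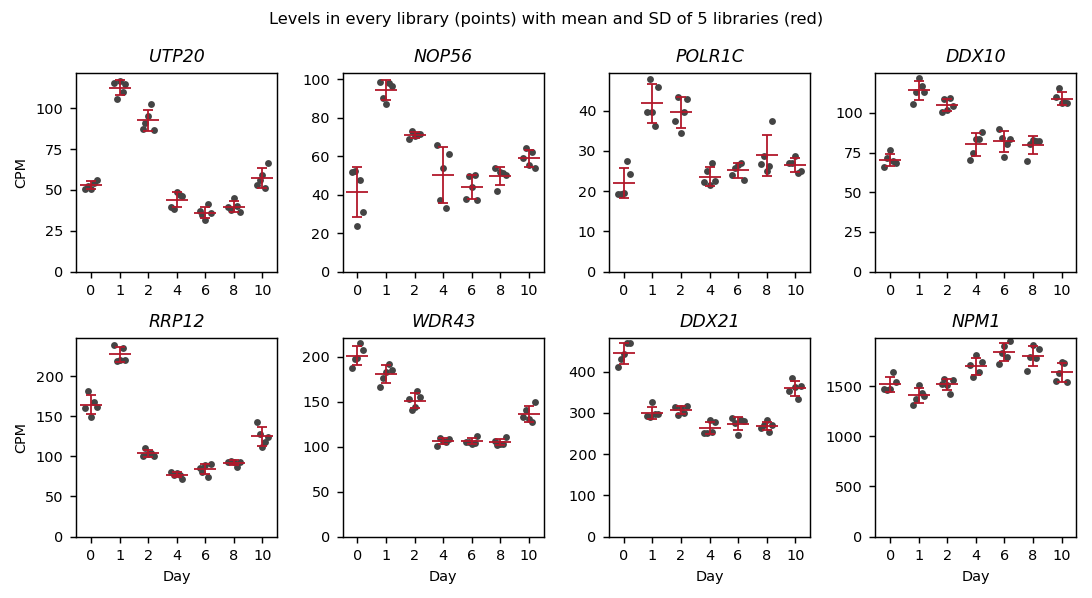
Each panel shows CPM of the protein-coding entry in every library (points, 5 a day) against the day, with the mean and SD in red, for UTP20, NOP56, POLR1C, DDX10, RRP12, WDR43, DDX21 and NPM1. Axes start at 0. UTP20 and RRP12 peak on day 1 and fall below day 0, DDX10 is high again on day 10, the means of WDR43 and DDX21 stay below day 0, and NPM1 is highest on day 6.

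Of the 11 large subunit factors, 9 were higher and 1 lower on day 1 (25.4% and 27.3% of all transcripts). All 11 fell between days 2 and 4 (16.7%), and on day 6, 8 were lower (17.0%) and the other 3 had no call. NOP2, a methyltransferase of the large subunit RNA (chromosome 12, 6556863 to 6568691), was at 72.7, 59.8, 62.9, 54.1 and 83.9 CPM on day 0, 108, 107, 98.9, 91.8 and 95.2 CPM on day 1 and 54.2, 36.6, 33.1, 55.9 and 40.6 CPM on day 6. Day 1 lay above day 0 in all libraries, day 6 below it in 3 of 5, and the log2 fold changes were 0.59 ± 0.12 (SE, edgeR adjusted p = 8.3e-05) and -0.59 ± 0.13 (SE, edgeR adjusted p = 0.000297). DDX18, an RNA helicase (chromosome 2, 117814691 to 117832377), was the group's lower call. It measured 213, 221, 214, 219 and 219 CPM on day 0, 167, 199.6, 184, 193 and 187 CPM on day 1 and 141, 134, 139, 152 and 149 CPM on day 6, with both later days below all of day 0. The log2 fold changes were -0.22 ± 0.05 (SE, edgeR adjusted p = 0.000422) and -0.60 ± 0.05 (SE, edgeR adjusted p = 3.09e-12).

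PES1, BOP1 and WDR12 form the PeBoW complex, which joins the precursor of the large subunit. Their log2 fold changes were 0.47, 0.37 and 0.52 on day 1, all called in edgeR with an adjusted p of at most 1.97e-06, and -0.20, 0.12 and 0.02 on day 6, where PES1 was called (adjusted p = 0.00327). Other pre-ribosome factors were lower at that time: RRS1, which brings in a ribonucleoprotein of the large subunit, was at -0.71, NOP16 at -0.65 and PPAN at -0.55, each called. The GTPases GNL2 and GNL3 separated on day 10, with GNL2 at -0.18 and GNL3, or nucleostemin, at 0.21, both called, although GNL2 was not called when libraries were scaled by their size alone and GNL3 stood at -0.085 with all its transcript types summed. RRP1B, a nucleolar scaffold, was higher by 0.48 on day 1 and lower on day 6, at -0.33. A readthrough gene overlaps PPAN, so its counts could have been divided.

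The remaining 3 nucleolar factors were lower on days 4, 6 and 8 (20.1%, 17.0% and 18.6% of all transcripts). DDX21, a helicase that acts in both ribosomal RNA transcription and processing (chromosome 10, 68956135 to 68985068), had the lowest value of all 39 genes on day 1. It was at 410.2, 429.6, 443, 468 and 469.9 CPM on day 0, 292, 289, 326, 297 and 298 CPM on day 1 and 251, 252, 282, 253 and 277 CPM on day 4. No library of either day reached the lowest of day 0, and the log2 fold changes were -0.56 ± 0.05 (SE, edgeR adjusted p = 4.13e-13) and -0.76 ± 0.05 (SE, edgeR adjusted p = 2.49e-16). On day 10 its 352, 384, 363, 333 and 364 CPM were still below day 0 without overlap (-0.31 ± 0.05, SE, edgeR adjusted p = 2.75e-06). MYBBP1A, a repressor of ribosomal DNA transcription (chromosome 17, 4538897 to 4555386), overlapped day 0 on day 1 but not on day 6. Its levels were 135, 160.3, 152, 144 and 146 CPM on day 0, 157, 168, 158, 146 and 159 CPM on day 1 and 90.6, 92.2, 94.2, 95.7 and 94.5 CPM on day 6, with log2 fold changes of 0.10 ± 0.07 (SE, edgeR adjusted p = 0.251) and -0.66 ± 0.07 (SE, edgeR adjusted p = 3.4e-10). LYAR, a nucleolar zinc finger protein, was higher on day 2 by 0.37 and lower on day 6, at -0.63.

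Of the 6 lower calls on day 1, that of DDX21 was kept when libraries were scaled by their size alone, whereas POLR1E, RRN3, FBL, WDR43 and DDX18 were then not called, and DDX18 was not called on day 2 either. In the fit of all entries of every transcript type, 30 of the protein-coding entries were higher on day 1 and 1, that of DDX21, lower, where 10.6% and 11.3% of all 65717 entries were. On day 10 that fit gave 11 higher and 7 lower (5.89% and 4.41%), against 9 and 12 with protein-coding entries alone.

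The count table splits a symbol by transcript type, and for several of these genes a large part of the counts was outside the protein-coding entry. On day 0 a median of 91.2% of a gene's counts were protein coding, and on day 1 this was 94.5%, with the share above day 0 in 31 genes and below it in 4. These counts compare mean shares by sign and were not tested. The same counts over all genes were not computed, so the shift cannot be called particular to these genes. For NOP56, 16.3% ± 5.8 (SD, n = 5) of counts were protein coding on day 0 and 36.2% ± 0.98 on day 1, while the share of its retained-intron entry, which collects transcripts with an unspliced intron, was 22.3% ± 3.1 and 8.34% ± 1.9. The largest part of NOP56, 57.5% ± 5.3 on day 0, was in an entry named processed transcript. For POLR1C the retained-intron share was 57.6% ± 4.9 on day 0 and 29.2% ± 6.2 on day 1, and for GNL3 35.4% ± 4.2 and 14.5% ± 2.3. TAF1D was the extreme, with 6.50% ± 0.68 protein coding on day 0 and 48.5% ± 2.0 in an entry for transcripts subject to nonsense-mediated decay.

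**Figure D3:**
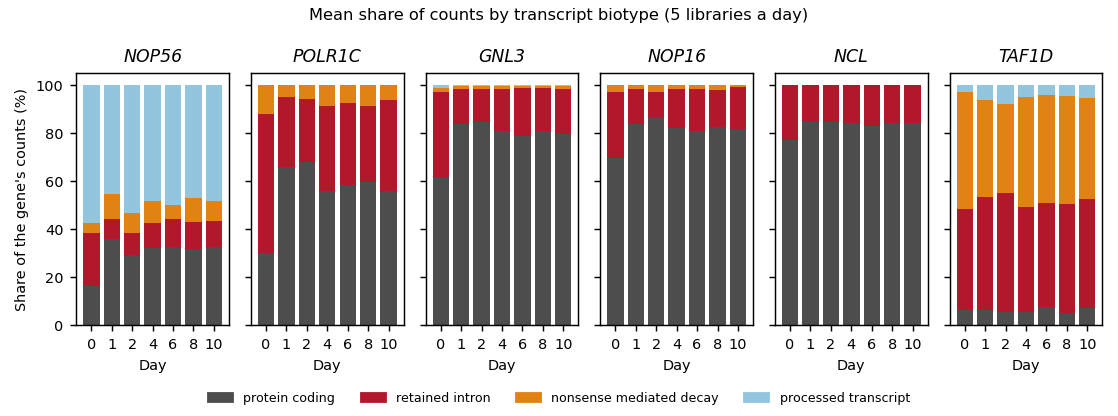
Stacked bars give the mean share (%) of a gene's counts in each transcript type for NOP56, POLR1C, GNL3, NOP16, NCL and TAF1D on each day (5 libraries a day). The red retained-intron part is widest on day 0 in the first 5 panels, at 57.6% for POLR1C and 22.9% for NCL, against 29.2% and 14.9% on day 1. In TAF1D it is 42.0% and 47.4%.

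Retained-intron entries were tested in a fit of all entries of every transcript type. Of the 31 such entries of these genes that had counts, 13 were lower and 3 higher on day 1, where 11.3% of all 65717 entries were lower and 10.6% higher. Retained-intron entries of all genes moved the same way on that day, with 16.8% of 8883 lower and 4.49% higher and a median log2 fold change of -0.39, against 41.9%, 9.68% and -0.63 for the 31. On day 10, 11 of the 31 were lower and 2 higher (4.41% and 5.89% of all entries), or 35.5% and 6.45% with a median of -0.65, against 7.68%, 3.58% and -0.13 for all retained-intron entries. Whether the 31 differ from the others was not tested. The retained-intron entry of POLR1C was at 33.8, 33.8, 33.2, 29.4 and 28.7 CPM on day 0 and 17.8, 11.6, 18.5, 19.2 and 13.6 CPM on day 1, without overlap, a log2 fold change of -0.98 ± 0.15 (SE, edgeR adjusted p = 7.99e-07). That of NOP56 was at 40.5, 49.6, 52.3, 33.3 and 43.0 CPM on day 0 and 25.5, 17.4, 13.2, 19.5 and 19.6 CPM on day 1, also without overlap (-1.20 ± 0.18, SE, edgeR adjusted p = 9.72e-07). That of WDR12 went the other way, from 13.8, 11.8, 12.9, 11.2 and 12.5 CPM to 24.1, 25.7, 27.1, 22.1 and 20.6 CPM (0.94 ± 0.11, SE, edgeR adjusted p = 4.24e-09), as did that of BOP1 (1.14 ± 0.17, SE, edgeR adjusted p = 8.81e-07). The third higher entry, that of POLR1A, was at 0 in all day 0 libraries and at most 1.94 CPM on day 1.

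With the counts of all transcript types of a symbol summed, an alternative chosen after this split had been seen, 23 of the 39 genes were higher and 2, DDX18 and DDX21, lower on day 1, where 14.4% and 16.4% of 41178 symbols were. POLR1C, GNL3 and PPAN were not called on day 1 in this form, and NOP56 changed less. The summed levels given here were scaled by the factors of the fit of all entries and the fold changes by those of the summed counts, so the ratio of the means is not the fitted fold. POLR1C had a summed level of 55.2 ± 2.1 CPM on day 0, 55.4 ± 1.1 CPM on day 1 and 34.2 ± 1.6 CPM on day 6 (SD, n = 5), with log2 fold changes of -0.04 on day 1 (edgeR adjusted p = 0.785) and -0.70 on day 6 (2.73e-18). NOP56 had 195 ± 12, 228 ± 7.8 and 107 ± 3.9 CPM on these days, with log2 fold changes of 0.17 (adjusted p = 0.0294) and -0.89 (2.5e-37). On day 10 the protein-coding entry of NOP56 was higher than on day 0 whereas its summed level gave a log2 fold change of -0.45. GNL3 and PPAN were at -0.01 and 0.02 on day 1. UTP20, DDX10 and POLR1A had larger fitted values in this form, at 1.23, 0.80 and 0.92.

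**Figure D4:**
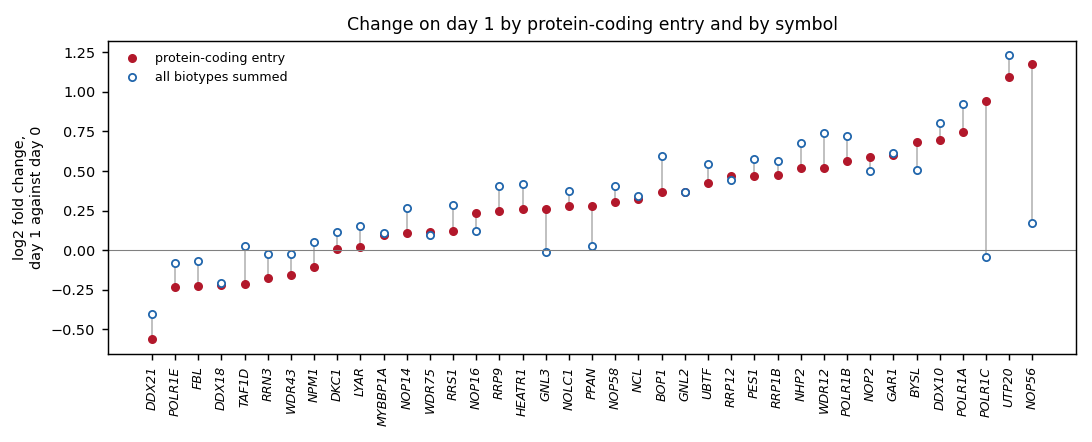
For each of the 39 genes, in order of change, filled circles give the log2 fold change of the protein-coding entry on day 1 against day 0 and open circles that of all transcript types summed. The lines between them are longest for NOP56 (1.18 and 0.17) and POLR1C (0.94 and -0.04).

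Introns of some of these genes hold snoRNA genes. By the GENCODE v44 annotation 8 of the 39 genes (20.5%) enclose at least 1 snoRNA gene, 33 in all, against 256 of 20046 protein-coding genes (1.28%): TAF1D encloses 8, GNL3 6, NOP56 5, NOP58 4, NCL and WDR43 3 each, and DKC1 and PPAN 2 each. On day 0 the median protein-coding share of the 8 hosts was 70.6%, and that of the other 31 genes 93.7%. On day 1 these were 85.5% and 96.1%. Whether the snoRNAs have a part in the counts of the non-coding entries was not tested.

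MYC and its relatives bind the E-box CACGTG, and promoters of these genes were read for it because the pathway is a known MYC target. RefSeq promoter windows (GRCh38.p14, 250 bases before to 50 after a transcript start) were matched for 31 of the 39 genes, and 14 of them (45.2%) held the motif in at least 1 window, against 1727 of 15843 protein-coding genes (10.9%). The motif reads the same on both strands. Its first base lay between 64 bases before and 35 bases after the start, and in 10 windows at or after it. The 4 windows printed here, each from 80 bases before to 20 after a start, belong to genes whose values in every library are given above. Capitals mark the E-box.
UTP20 promoter: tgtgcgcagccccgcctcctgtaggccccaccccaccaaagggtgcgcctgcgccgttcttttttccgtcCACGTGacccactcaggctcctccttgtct
WDR43 promoter: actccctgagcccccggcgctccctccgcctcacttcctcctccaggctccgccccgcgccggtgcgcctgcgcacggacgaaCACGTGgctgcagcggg
DDX21 promoter: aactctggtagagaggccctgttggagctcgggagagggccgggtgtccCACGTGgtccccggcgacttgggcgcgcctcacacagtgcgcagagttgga
FBL promoter: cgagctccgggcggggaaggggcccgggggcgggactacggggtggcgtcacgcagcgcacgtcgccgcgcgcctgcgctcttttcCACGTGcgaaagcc
These stretches lie at chr12:101280025-101280124 (UTP20, plus strand), chr2:28894587-28894686 (WDR43, plus strand), chr10:68956567-68956666 (DDX21, plus strand) and chr19:39846360-39846459 (FBL, minus strand). The DDX21 start is the downstream one of 2 RefSeq windows and lies inside the annotated gene. A match is a string of letters and says nothing of binding in these cells.

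Genes with and without the E-box had median log2 fold changes on day 1 of 0.25 (14 genes) and 0.33 (17 genes), with 8 and 12 genes higher. On day 6 the medians were -0.49 and 0.02, with 11 of 14 and 7 of 17 genes lower, and on day 10 they were -0.09 and 0.19. These medians are descriptions of gene sets that share libraries and were not tested against each other. They rest on protein-coding entries alone and were not computed with all transcript types summed. Of all transcripts, 25.4% were higher on day 1 and 17.0% lower on day 6. The 4 promoters above belong to genes that moved apart on day 1, at 1.09 for UTP20, -0.15 for WDR43, -0.56 for DDX21 and -0.23 for FBL. They do not stand for the 14 genes with the motif, of which 8 were higher and 3, all printed, were lower on that day. Of these 3 lower calls, that of DDX21 alone was kept when libraries were scaled by their size alone. The same held in the fit of all entries of every transcript type. MYC itself was at 914, 1032, 868, 984 and 1107 CPM on day 0 and 1099, 1119.5, 1053, 1105 and 1132 CPM on day 1, with 2 of 5 day 1 libraries above all of day 0 and a log2 fold change of 0.17 ± 0.06 (SE, edgeR adjusted p = 0.0154). On day 6, when the genes with the motif were at their lowest, the MYC value was 0.13 (adjusted p = 0.0975). These are RNA levels, and whether MYC has a part in the changes of these genes was not tested.

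Other lists of the pathway were read beside these genes. Of all transcripts, 25.4% were higher and 27.3% lower on day 1, and 17.5% and 17.0% on day 6. Of 112 further ribosome assembly factors tested, 67 were higher and 14 lower on day 1 (median 0.30), and 8 were higher and 61 lower on day 6 (median -0.24). The extremes on day 1 were RUVBL2, an ATPase of the snoRNP assembly machinery, at 1.95 ± 0.28 (SE, edgeR adjusted p = 1.06e-07), and GLTSCR2, which helps to incorporate a large subunit particle, at -1.37 ± 0.07 (SE, edgeR adjusted p = 1.66e-19). Of 14 further RNA polymerase I subunits and factors, 8 were higher and 1 lower on day 1, from -0.63 for POLR1D to 1.07 for POLR2F, and of 11 RNA polymerase III subunits 7 and 3, from -0.59 for POLR3GL to 1.15 for POLR3K.

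The cytosolic ribosomal proteins, which the assembly factors build into the subunits, had another time course. All 79 tested were lower on day 1, with a median log2 fold change of -0.71 and a range from -1.56 for RPL12 to -0.28 for RPLP1, and all 79 were lower on day 2 (median -0.68). Of all transcripts, 27.3% were lower on day 1 and 24.4% on day 2. With the transcript types summed, 76 of 79 were lower on day 1. From day 2 to day 4, 76 of the 79 rose (13.9% of all transcripts) and the other 3 had no call, the interval in which 33 of the 39 biogenesis genes fell. On day 6, 1 was lower and 2 were higher (median -0.03, or 0.02 scaled by library size alone), when 24 biogenesis genes were lower. Ribosomal protein genes have many processed pseudogenes, so their counts could have been split.

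**Figure D5:**
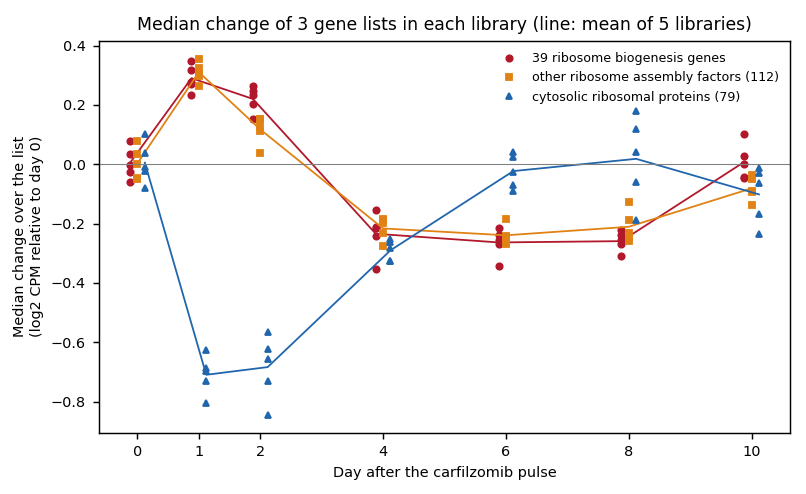
Each point is the median over a list of log2 CPM relative to the day 0 mean in 1 library (5 a day), and lines join the means of the 5 libraries. Red circles are the 39 genes, orange squares 112 other assembly factors and blue triangles 79 cytosolic ribosomal proteins. Red and orange are above 0 on days 1 and 2 while blue is below -0.5, and on days 6 and 8 the blue line is above the others.

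In the small lists, the MYC network split on day 1 into 4 higher and 3 lower of 9, from -1.19 for MXD3, a MAX partner, to 1.47 for MAX, the partner of MYC. Of the 7 plasma cell markers 5 were lower on day 1, and of the 9 markers of other cell types 3 were lower and 1 higher. Of all transcripts, 25.4% were higher and 27.3% lower on that day, and these small lists were not tested against those shares.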

How the data were processed

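RNA from 35 libraries of RPMI-8226 cells (7 days, 5 libraries a day) was made with a directional kit and sequenced as paired ends, and the authors quantified transcripts with Kallisto 0.44.0 against GENCODE (GRCh38.p12), summed them with tximport and analysed them with DESeq2 1.25.8 in R 3.5.0. The deposited values are whole-number estimated counts, with no scaling for library size, for 84647 combinations of gene symbol and transcript biotype (79 biotypes). Groups were taken from the labelled day. The 17999 of 19665 protein-coding entries that had at least 1 count were fitted with day as a factor in edgeR 4.0.16 (quasi-likelihood test, TMM, R 4.3.3), p-values were adjusted over all of them by the Benjamini-Hochberg method, and an adjusted p of 0.05 or less was called. The standard error is the log2 fold change divided by the root of the F statistic. The fitted log2 values include edgeR's small prior count. CPM values in the text are TMM-scaled counts. A further fit took all 65717 entries with a count. Scripts were tested on simulated data.

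The genes and lists were chosen with earlier results of these data known. Genes given with values in every library are, for each role, those with the highest and lowest change on day 1, and those with the largest called rise and fall on day 10. Of the other lists, the highest and lowest on day 1 with a mean log2 CPM above 0, and MYC, are named. The promoters printed were picked from the E-box genes given in every library, which also include GAR1, NOP2 and MYBBP1A. They are from RefSeq, and gene positions are from GENCODE v44 on GRCh38. Alternatives were another filter, other scaling factors, DESeq2 1.42.0, the 2 days alone, a replicate block, leaving out each library, and summed transcript types. Libraries of a day with the same replicate number as a library of another day did not deviate together (correlations from -0.11 to 0.10 over 55 pairs compared), so the numbers were not used to pair samples. No 2 libraries held identical values. Run or sequencing dates are not given in the sources used here, so batches were not examined. Some members of the other lists are not reported here.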

Additional observations from a re-analysis of the deposited data

Results flagged for a closer look

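In 17 of the 273 groups of 5 libraries (39 genes on 7 days), 1 library stood apart from the other 4 by Dixon's test at the 95% level, where chance gives about 1 in 20 groups. The libraries concerned were 16 different ones, and the third library of day 0 held 2 of the values: POLR1A at 115.5 CPM (the others were between 108.7 and 110.3) and POLR1E at 41.3 CPM (47.1 to 49.5). Also on day 0, BYSL was at 40.2 CPM in the fifth library (27.3 to 30.5).

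On day 1, DDX21 was at 326 CPM in the third library (289 to 298), NOP14 at 84.4 CPM in the fourth (95.7 to 98.0) and LYAR at 33.1 CPM in the first (39.8 to 42.0). On day 2, BOP1 was at 295.5 CPM in the second library (265 to 274). The widest gap relative to the level was that of BYSL on day 4, with 14.4 CPM in the third library against 29.0 to 33.5 CPM in the others. On day 6, DDX21 was at 245.5 CPM in the third library (275 to 287) and WDR43 at 111.7 CPM in the fifth (103 to 106).

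On day 8, RRP9 was at 26.1 CPM in the second library (32.0 to 34.1), RRP12 at 86.3 CPM in the fourth (92.9 to 94.3), DDX10 at 69.8 CPM in the first (80.3 to 82.9) and RRS1 at 32.8 CPM in the fifth (24.6 to 26.1). On day 10, GAR1 was at 25.4 CPM in the second library (18.2 to 19.3), NCL at 795 CPM in the first (861 to 877) and LYAR at 40.9 CPM in the fifth (35.2 to 35.9).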

How the results depend on the processing

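Of the 167 calls among the 234 values of a gene on a day against day 0, 18 were lost when some single library was left out and 24 under some other alternative planned. Scaled by library size alone, 1 gene was lower on day 1, 11 were higher on day 4 and 15 on day 10, 12 fell and 0 rose between days 4 and 6, and 1 retained-intron entry was higher on day 10. The medians were then 0.39, 0.33, -0.15, -0.27, -0.26 and 0.051 on days 1, 2, 4, 6, 8 and 10, the last with its sign turned, and NPM1 on day 2 turned to 0.13. With library factors of the protein-coding entries, 1 retained-intron entry was higher on day 10. Between days 4 and 6, 0 genes rose with the DESeq2 size factors or with those 2 days alone, and such a fit gave 1 fall and 0 rises between days 6 and 8. Between days 8 and 10, 1 gene fell with the stricter filter on low counts and 1 with DESeq2.

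With all transcript types summed, which was chosen after seeing the data, 2 genes were lower on day 1, and 3, 0, 0 and 3 rose in the intervals that ended on days 2, 4, 6 and 8. The medians were 0.34, 0.12 and -0.26 on days 1, 2 and 8. The sign turned for POLR1C on days 1, 2, 4, 6, 8 and 10 (-0.042, -0.20, -0.68, -0.70, -0.50 and -0.55), for NOP56 on days 4, 6, 8 and 10 (-0.61, -0.89, -0.63 and -0.45) and for GNL3 on days 1, 2, 4, 8 and 10 (-0.015, -0.0071, -0.25, -0.25 and -0.085). Here the added counts are those of the non-coding entries, by construction. The cause of the other shifts was not tested.

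Leaving out 1 library at a time gave 6 to 7 lower and 25 to 27 higher genes on day 1 (median 0.24 to 0.31), 7 to 9 and 21 to 22 on day 2 (0.15 to 0.21), 19 to 20 and 6 to 9 on day 4 (-0.28 to -0.20), 22 to 24 and 3 to 4 on day 6 (-0.36 to -0.28), 18 to 22 and 7 to 8 on day 8 (-0.31 to -0.23), and 9 to 12 and 8 to 12 on day 10 (-0.053 to 0.10, the highest without the fifth library of day 0). Between neighbouring days, 13 to 14 genes fell and 5 to 6 rose to day 2, 32 to 33 and 1 to day 4, 3 to 8 and 0 to 1 to day 6, 0 and 0 to 1 to day 8, and 0 to 1 and 17 to 19 to day 10. Retained-intron entries were lower in 10 to 13 and higher in 3 to 4 cases on day 1, and in 9 to 12 and 2 on day 10.

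With the replicate number as a block, 0 genes rose between days 4 and 6 and 1 fell between days 8 and 10, and the other counts of genes stayed within 1.5 times. The numbers do not pair the libraries: same-numbered libraries had correlations of -0.11 to 0.10, and in 11 of 55 cases the own number correlated best. Simulated data at the sizes of these libraries held changes of 1.5 times, and whether smaller ones could be detected was not tested.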

Other observations

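Other non-coding entries of the 39 genes were read in the fit of all entries. The processed transcript entry of NOP56 was at 91.8, 106.4, 125.6, 108.6 and 130.7 CPM on day 0 and at 57.6, 45.5, 53.7, 53.3 and 54.7 CPM on day 6, without overlap. Its entry for transcripts subject to nonsense-mediated decay changed by 1.63 on the log2 scale on day 1 (edgeR adjusted p = 8.38e-06). The processed transcript entry of TAF1D, whose protein-coding entry was not called on any day, changed by 1.19 on day 1 (8.32e-05), and that of GNL2 by -1.46 (2.85e-08). Of the 16 nonsense-mediated decay entries with counts, 1 was higher and 3 were lower on day 1, and of the 21 processed transcript entries 2 were higher and 2 lower, where 10.6% of all entries were higher and 11.3% lower.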
